A study of Mus musculus with 92 samples.

Results

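The genes described here are 10 genes of the unfolded protein response, the program by which a cell adjusts protein folding in its endoplasmic reticulum (ER). They are the rows named Hspa5, Hsp90b1, Pdia4, Ern1, Ern2, Xbp1, Dnajb9, Herpud1, Sel1l and Edem1, 10 of the 54532 genes in the 4 deposited count tables, and all 10 passed the filter on low counts in every comparison. They were read in 92 mouse intestinal libraries in 21 groups, in which the translation factor gene Eif4g2 was deleted or the acetyltransferase inhibitor A-485 was given.

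Unfolded proteins in the ER lumen are sensed by membrane proteins, among them the kinase and endoribonuclease IRE1. IRE1 removes a short intron from Xbp1 mRNA, and the protein made from the spliced mRNA is a transcription factor that raises chaperones and genes of ER-associated degradation, the route by which misfolded proteins are returned to the cytosol and destroyed. The intestine has a second IRE1 gene, Ern2, that is known from mucus-secreting goblet cells. Gene counts do not separate spliced from unspliced Xbp1, so they give the amount of these mRNAs and not the activity of the sensors.

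In the tissue, exons of Eif4g2 between loxP sites were removed by tamoxifen-activated CreER. Rosa26(CreER) acts in cells of many types. These mice received tamoxifen, are labelled day 9 and gave 5 Eif4g2(flox/+) and 4 Eif4g2(flox/flox) crypt libraries and 5 villus libraries of each genotype. Vil1(CreER) acts in the intestinal epithelium. These mice received 4 daily injections of tamoxifen at 100 mg/kg, are labelled with 3 months and gave 4 flox/+ and 3 flox/flox crypt libraries and 4 flox/+ and 6 flox/flox villus libraries. Crypts and villi came in part from the same animals. The heterozygous controls therefore carry CreER, received tamoxifen and lost 1 copy of Eif4g2. All cultures carried Rosa26(CreER) and grew in ENR medium. In the first organoid set, 3 flox/flox lines received DMSO or 0.5 µM 4-hydroxytamoxifen (4-OHT) for 24 h, and were collected on day 6. In the second set 4 flox/flox, 4 flox/+ and 4 Eif4g2(+/+) libraries all received 4-OHT. Fetal intestinal spheroids gave 6 flox/flox and 5 flox/+ lines, each with DMSO and with 4-OHT. The A-485 series had 4 organoid lines without 4-OHT, 1 of them Eif4g2(+/+) and the others flox/flox, given DMSO or 3, 5 or 10 µM for 4 days. Organoids in WENR medium were not analysed here.

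Library totals ran from 8652040 to 37611100 counts (to 6 digits), and the precision of each value is shown by its spread over libraries. The libraries of a tissue group carry different animal numbers in the labels, and those of a culture group different line names. The Eif4g2(+/+) organoids of the second set and some spheroid lines differ only by a letter. Where such names do not show separate animals or cultures, p-values measure only the spread between these libraries, which may be technical. Eif4g2 followed the labels: its level was 343 ± 26.7 (SD, n = 5) CPM in heterozygous and 54.6 ± 6.18 (SD, n = 5) CPM in homozygous Rosa26(CreER) villi, where CPM stands for counts scaled to a common library size after TMM normalization within a set of libraries. It was lower without overlap in all 7 deletion comparisons, least so in Vil1(CreER) crypts (471 ± 23.7 (SD, n = 4) against 237 ± 5.20 (SD, n = 3) CPM). Homozygous crypt libraries had a higher share of mitochondrial reads than heterozygous ones, 13.7 to 25.2% against 6.24 to 12.4% with Rosa26(CreER), and 30.4 to 40.3% against 17.5 to 30.8% with Vil1(CreER). The Vil1(CreER) crypt ranges overlapped slightly. In villi the ranges overlapped with both drivers, 2.39 to 6.76% against 2.74 to 24.5% with Rosa26(CreER), and 6.86 to 23.5% against 9.71 to 24.3% with Vil1(CreER). Reads of Y-linked genes were present in all heterozygous Rosa26(CreER) libraries, but in 1 of 4 homozygous crypt and 2 of 5 homozygous villus libraries. The part of these differences in the results was not tested, except that presence of Y-linked reads was added to the fit of the Rosa26(CreER) comparisons and the counts of called genes stayed at 2 in crypts and 4 in villi. The flox/flox DMSO spheroid library 5 and the spheroid line behind replicate 6 stood apart for several of the genes, as given below. With 4-OHT the flox/flox line of replicate 6 kept Eif4g2 at 224 CPM, against 84.9 to 119 CPM in the other flox/flox lines. The part of this in its values was not tested.

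Across the groups Hspa5, the ER chaperone BiP, was the most abundant of the 10 mRNAs per length or the one after it. Its group mean ran from 86.3 to 243 CPM per kb of gene model. Hsp90b1, the ER member of the HSP90 family, was at 58.6 to 200.3 CPM per kb. Both IRE1 genes stood at the low end, Ern1 at 3.78 to 11.5 and Ern2 at 0.101 to 11.2 CPM per kb. When the 21 group means of a gene were put in order, few neighbours had ranges that did not overlap: 1 of 20 neighbouring pairs for Hspa5, 2 of 20 for Ern2 and 0 of 20 for Xbp1.

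**Figure D1:**
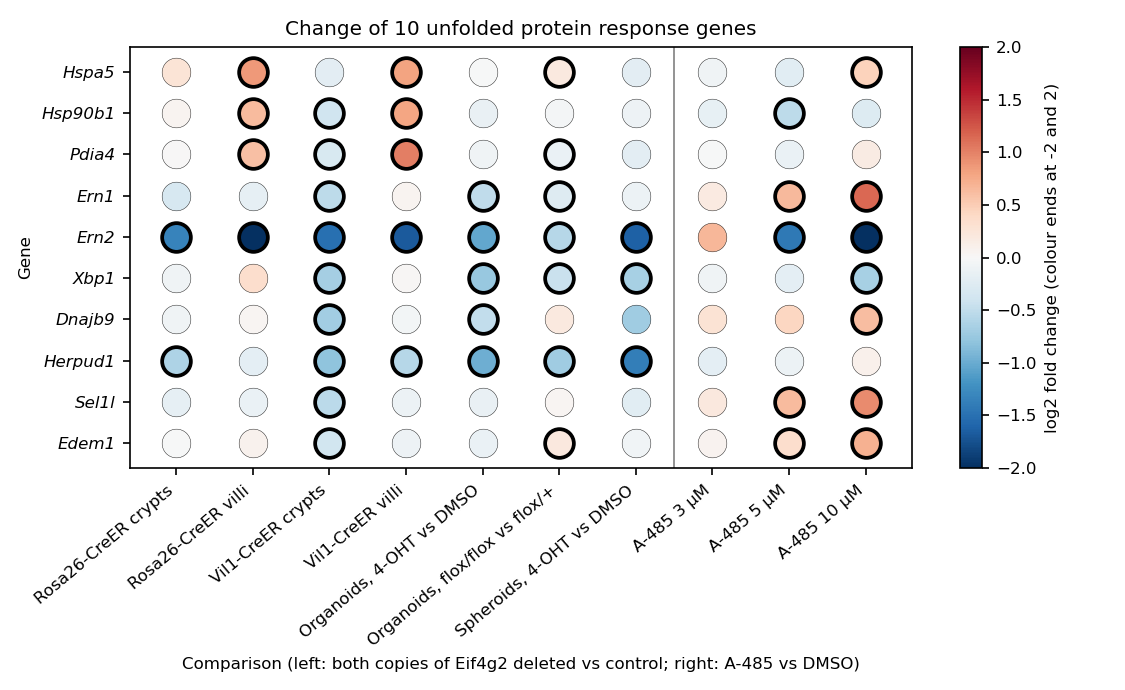
Log2 fold change (colour, white at 0) of each gene (rows) in 7 comparisons of Eif4g2 deletion with its control and 3 doses of A-485 against DMSO (columns), with a thick ring where the edgeR adjusted p was under 0.05. Ern2 is ringed and blue in all 7 deletion comparisons, the 3 chaperones at the top are ringed and red in both villus columns, and Ern1, Sel1l and Edem1 are ringed and red at 5 and 10 µM.

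The chaperones Hspa5, Hsp90b1 and Pdia4, a protein disulfide isomerase of the ER, were higher in homozygous villi with both CreER drivers. Homozygous against heterozygous villi with Rosa26(CreER), 3 of the 10 genes rose and 1 fell (background: 33.2% of 13579 genes called), and with Vil1(CreER) 3 rose and 2 fell (42.5% of 15107). Called means an adjusted p under 0.05 in edgeR's quasi-likelihood test, adjusted over all tested genes by the Benjamini-Hochberg method. In bulk libraries, fewer cells of a type and less RNA per cell cannot be told apart.

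Hspa5 lies at chr2:34771970-34777547 (GRCm38), Hsp90b1 at chr10:86690209-86705509 and Pdia4 at chr6:47796141-47813430. Of the 9 members with a promoter entry in the RefSeq table for GRCm38.p6 (250 bases before to 50 after the start), Hspa5 and Hsp90b1 hold the ER stress element, read as CCAAT and CCACG with 9 bases between them on either strand, which 39 of all 32851 promoters hold (0.119%). Herpud1 holds the related element II, ATTGG and CCACG with 1 base between them, found in 12 promoters (0.0365%), and a C/EBP-ATF composite site, TGATGCAA, found in 0.895%. The shorter element TGACGTGG was in 0 of the 9 windows and in 0.676% of all. The ER stress elements contain the plain CCAAT letters, which alone stand in 37.4% of promoters. A match is a description of letters and was not tested for binding. The members were picked as genes of the unfolded protein response, so the shares of all promoters are no test of them. The 3 stretches are shown because they hold these elements in 2 of the chaperone genes of the villus comparison and in Herpud1, whose values come further on, with the motif letters in capitals and the gene's own strand from 5′ to 3′. They end 27, 69 and 22 bases before the RefSeq start of Hspa5, Hsp90b1 and Herpud1, at chr2:34772005-34772063, plus strand, chr10:86705513-86705676, minus strand, and chr8:94386297-94386407, plus strand.
Hspa5: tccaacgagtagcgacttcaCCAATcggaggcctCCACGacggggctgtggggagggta
Hsp90b1: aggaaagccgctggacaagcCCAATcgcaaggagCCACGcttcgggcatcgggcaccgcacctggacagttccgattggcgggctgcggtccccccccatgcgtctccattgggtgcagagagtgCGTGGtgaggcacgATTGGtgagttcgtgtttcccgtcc
Herpud1: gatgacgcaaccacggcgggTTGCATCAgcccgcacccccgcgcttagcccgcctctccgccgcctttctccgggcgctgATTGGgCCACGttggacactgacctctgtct

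In Rosa26(CreER) villi, Hspa5 was at 387, 513, 582, 613 and 623 CPM in the heterozygous and at 769, 982, 1027, 1047 and 1308 CPM in the homozygous libraries. Every homozygous library was above every heterozygous one, and the log2 difference was 0.87 ± 0.16 (SE; edgeR adjusted p = 0.00189). The homozygous libraries with Y-linked reads were at 1027 and 1047 CPM, within the range of the other 3. Hsp90b1 was at 191, 212, 241, 259.7 and 277 CPM against 332, 353, 364, 394 and 445 CPM, again without overlap, a difference of 0.63 ± 0.12 (SE; edgeR adjusted p = 0.00227). Hsp90b1 shares 415 exon bases with 1810014B01Rik on the opposite strand, and the strand setting of the counting is not given in the sources used here, so reads of the pair may not be separated. Pdia4 was at 48.0, 60.1, 63.1, 63.3 and 73.7 CPM against 82.3, 87.6, 94.5, 108 and 113 CPM, a difference of 0.61 ± 0.12 (SE; edgeR adjusted p = 0.00306).

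In Vil1(CreER) villi the same 3 genes were called higher. Hspa5 was at 411, 527, 537 and 563 CPM in heterozygous and 688 to 1083 CPM (median 958, n = 6) in homozygous villi, a log2 difference of 0.80 ± 0.17 (SE; edgeR adjusted p = 0.00178). Hsp90b1 was at 318, 379, 416 and 429.6 CPM against 588 to 762 CPM (median 681, n = 6) (0.80 ± 0.14, SE; edgeR adjusted p = 0.000556). Pdia4 had the largest difference of the 3, 50.2, 59.6, 60.5 and 68.6 CPM against 85.3 to 150.1 CPM (median 126, n = 6) (1.03 ± 0.17, SE; edgeR adjusted p = 0.000356). The groups did not overlap for any of the 3.

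With Rosa26(CreER), heterozygous villus library 3 had the highest mitochondrial share of its group (24.5%). With Vil1(CreER), these were heterozygous 2 and homozygous 1 (24.3 and 23.5%). Each was the lowest of its group for Hspa5, Hsp90b1 and Pdia4. In homozygous Rosa26(CreER) villi, library 5 had the highest share (6.76%). It was the lowest for Hspa5 and Hsp90b1 but not for Pdia4 (87.6 CPM, against 82.3 CPM in library 2). Without heterozygous 3, the Rosa26(CreER) differences of the 3 genes were 0.80, 0.60 and 0.56. Without heterozygous 2, those with Vil1(CreER) were 0.70, 0.70 and 0.94, and without homozygous 1 they were 0.87, 0.84 and 1.12. All 3 genes stayed called in each of these fits (edgeR adjusted p at most 0.0089).

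**Figure D2:**
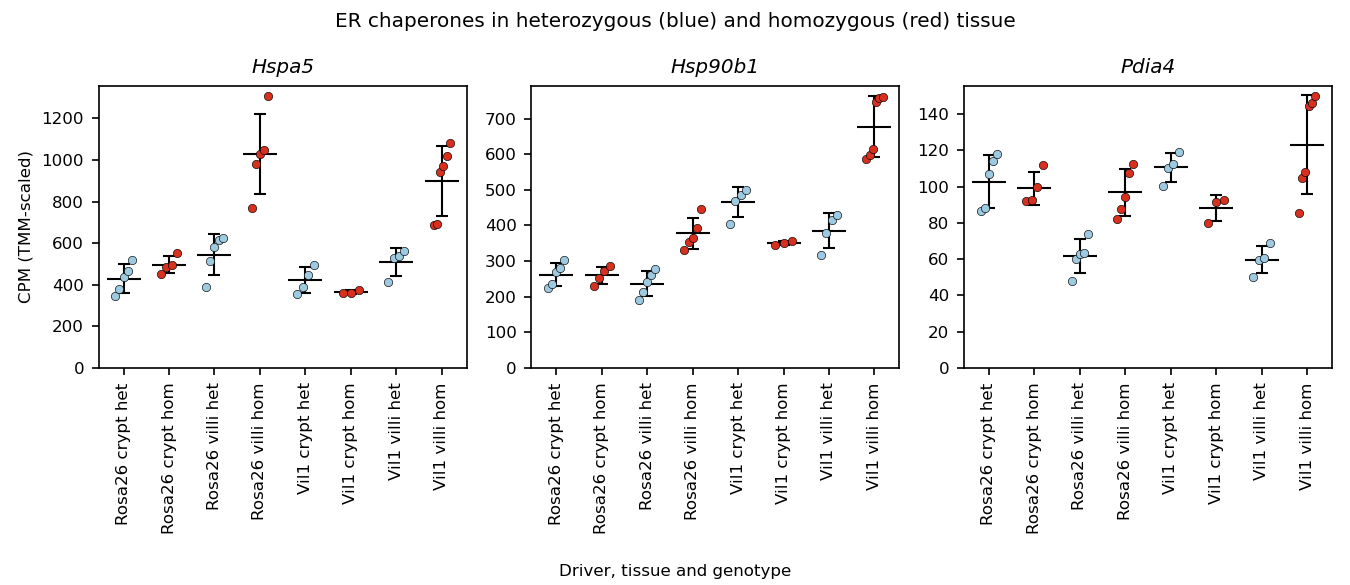
Level in CPM (vertical axis, from 0) of Hspa5, Hsp90b1 and Pdia4 in each tissue library (points), with the group mean and SD (bars), in heterozygous (blue) and homozygous (red) crypts and villi of both drivers. The red villus points lie above the blue villus points in all 3 panels, while red and blue crypt points overlap with Rosa26-CreER.

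None of the 3 was called higher in crypts. In Rosa26(CreER) crypts, 2 of the 10 genes were called, both lower (background: 20.2% of 15846 genes called, 11.6% lower), and the differences of Hspa5, Hsp90b1 and Pdia4 were 0.27 ± 0.14, 0.05 ± 0.11 and 0.01 ± 0.12 (log2 ± SE; edgeR adjusted p = 0.178, 0.775 and 0.968). The genotype difference in villi minus that in crypts was 0.68 ± 0.18 for Hsp90b1 and 0.71 ± 0.18 for Pdia4 (edgeR adjusted p = 0.02 and 0.0189), while that of Hspa5, 0.71 ± 0.23, missed the threshold (edgeR adjusted p = 0.0519). These are 2 of 10 genes called, both higher (background: 11.5% of 16495 called, 6.68% higher). The libraries of the 2 tissues come in part from the same animals, which this test does not use.

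In Vil1(CreER) crypts 9 of the 10 genes fell and 0 rose (background: 29.3% of 16954 genes called, 17.7% lower). Hspa5 was the gene not called, at 356, 387, 446 and 496 CPM in heterozygous and 359, 361 and 376 CPM in homozygous crypts (-0.20 ± 0.12, SE; edgeR adjusted p = 0.245). Hsp90b1 fell by 0.40 on the log2 scale, from 405, 468, 486 and 500.1 CPM to 344, 351 and 358 CPM, and Pdia4 by 0.33. Pdia4 was no longer called without any library but heterozygous 2 (edgeR adjusted p 0.0528 to 0.105), and Hsp90b1 without homozygous 1 or 3 (0.0561 and 0.0548). The genotype difference in villi minus that in crypts was 1.03 ± 0.23 for Hspa5, 1.22 ± 0.19 for Hsp90b1 and 1.37 ± 0.22 for Pdia4 (log2 ± SE; edgeR adjusted p = 0.00926, 0.0011 and 0.00146). With Dnajb9 (0.65) and Xbp1 (0.73), 5 of the 10 genes were called higher in this test (background: 15.5% of 17821, 9.38% higher). The calls of Dnajb9 and Xbp1 were lost without homozygous crypt library 1 (edgeR adjusted p 0.06) and 2 (0.0655) in turn.

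Other ER chaperones and folding enzymes were counted from a list of 22. In Rosa26(CreER) villi 7 rose and 3 fell (median log2 difference 0.25, all genes -0.01), among them Hyou1 (0.75 ± 0.17, SE), an ER chaperone of the HSP70 class, and Creld2 (0.70 ± 0.16). In Vil1(CreER) villi 8 rose and 4 fell (median 0.23, all genes 0.05), and Hyou1 was again among those that rose (0.87 ± 0.16). Ero1lb, an oxidase that serves disulfide formation, fell in both, by 1.87 on the log2 scale in Vil1(CreER) villi. In Vil1(CreER) crypts 1 rose and 13 fell (median -0.36, all genes 0.01). Syvn1, the ubiquitin ligase that works with Sel1l, rose in villi by 0.80 ± 0.12 and 1.04 ± 0.19. Of 12 cytosolic heat shock genes tested in Rosa26(CreER) villi 5 rose and 0 fell, and of 11 in Vil1(CreER) villi 4 rose and 1 fell. Of all genes, 33.2% were called in Rosa26(CreER) villi, 42.5% in Vil1(CreER) villi and 29.3% in Vil1(CreER) crypts.

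Markers of other cells moved with genotype in the same villi. Of 10 markers of immune cells other than B cells 8 fell with either driver, their summed level running from 3962 to 7270.5 CPM in heterozygous and from 1129 to 3546 CPM in homozygous Rosa26(CreER) villi, and from 3021 to 5478 and 161 to 1619 CPM with Vil1(CreER). Of the plasma and B cell list, whose cells are rich in ER, 0 of 8 were called in villi of either driver, and their sums overlapped (37.0 to 1003 against 314 to 852 CPM with Rosa26(CreER), and 18.6 to 131 against 50.004 to 297 CPM with Vil1(CreER)). Of 8 pan-epithelial markers 5 rose and 1 fell in each. The part of these markers in the chaperone difference was not tested.

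In cultures Igkc and Igha, genes of plasma cells, were at 0 in every library, and the summed level of the other immune markers was at most 38.1 CPM. Hspa5 in the first organoid set was at 592, 635 and 719 CPM with DMSO and 563, 602 and 770.0 CPM with 4-OHT (-0.01 ± 0.14, SE), and Hsp90b1 and Pdia4 differed by -0.15 ± 0.13 and -0.08 ± 0.10 (edgeR adjusted p = 0.972, 0.409 and 0.575). In the second set Hspa5 was at 918, 1018, 1022 and 1030.2 CPM in flox/flox against 842, 877, 889 and 892 CPM in flox/+ organoids, groups that did not overlap, with a difference of 0.19 ± 0.05 (SE; edgeR adjusted p = 0.0103). Against the Eif4g2(+/+) organoids, which share the flox/flox libraries, it was 0.08 ± 0.05 (edgeR adjusted p = 0.249). Pdia4 was called lower in both comparisons, by 0.13 and 0.24 on the log2 scale. The first of these calls was lost without any of 7 libraries (flox/flox 3 and 4, flox/+ 1, 2 and 4, Eif4g2(+/+) 1 and 2; edgeR adjusted p 0.0509 to 0.125).

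The sensor gene Ern2 (chr7:122169893-122186207) was called lower in 7 of 7 comparisons of Eif4g2 deletion with a control, with log2 differences from -2.04 to -0.57. In Rosa26(CreER) crypts it was at 26.8, 27.5, 31.3, 31.6 and 37.6 CPM in heterozygous and 9.89, 10.4, 11.4 and 15.8 CPM in homozygous libraries. No homozygous library reached the lowest heterozygous one (-1.34 ± 0.15, SE; edgeR adjusted p = 0.000622). In the villi of these mice it was at 6.84, 8.69, 8.94, 9.19 and 13.8 CPM against 1.55, 2.03, 2.13, 2.23 and 3.96 CPM (-2.04 ± 0.28, SE; edgeR adjusted p = 0.000404). With Vil1(CreER) it was at 26.1, 32.6, 34.9 and 38.9 CPM against 10.3, 11.3 and 13.2 CPM in crypts (-1.51 ± 0.15, SE; edgeR adjusted p = 0.000371). Ern2 also fell in Vil1(CreER) villi, from 11.8, 15.7, 16.5 and 20.05 CPM to 3.94 to 6.67 CPM (median 4.79, n = 6) (-1.68 ± 0.20, SE; edgeR adjusted p = 2.33e-05). The test of villi against crypts gave -0.60 ± 0.32 with Rosa26(CreER) and -0.14 ± 0.26 with Vil1(CreER), neither called (edgeR adjusted p = 0.225 and 0.753).

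In the first organoid set Ern2 was at 23.3, 23.8 and 35.0 CPM with DMSO and 10.8, 14.5 and 14.9 CPM with 4-OHT (-1.03 ± 0.20, SE; edgeR adjusted p = 0.00726). Here 5 of the 10 genes fell and 0 rose (background: 35.4% of 15297 called, 17.2% lower). In this set 8 of 10 Paneth markers fell. In the second set it was at 20.4, 20.7, 20.8 and 25.2 CPM in flox/flox, 31.2, 31.4, 33.2 and 33.6 CPM in flox/+ and 29.8, 30.3, 34.9 and 36.9 CPM in Eif4g2(+/+) organoids. The flox/flox libraries were the lowest, and the difference from flox/+ was -0.57 ± 0.09 (SE; edgeR adjusted p = 0.000126). In that comparison 2 genes rose and 5 fell (background: 46.8% of 14220 called), and against Eif4g2(+/+), with the same flox/flox libraries, 0 rose and 5 fell (45.3% called, 23.5% lower).

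In flox/flox spheroids Ern2 ran from 8.47 to 79.2 CPM (median 20.2, n = 6) with DMSO and from 2.86 to 31.3 CPM (median 6.31, n = 6) with 4-OHT. The groups overlapped, with 3 of the 4-OHT libraries above the lowest DMSO library. The line of replicate 6 was the highest in both, at 79.2 and 31.3 CPM. The labels pair these libraries by line, which the test does not use. Within lines, Ern2 was lower with 4-OHT in all but replicate 1, which was at 8.47 CPM with DMSO and 8.98 CPM with 4-OHT. The difference was -1.63 ± 0.55 (SE; edgeR adjusted p = 0.0416), 1 of 3 genes that fell while 0 rose (background: 19.1% of 15032 called, 10% lower). Its call was lost without any of 7 libraries (DMSO 4 and 6, 4-OHT 1 to 5; edgeR adjusted p 0.0613 to 0.124). Against flox/+ spheroids with 4-OHT the difference was -1.27 ± 0.56 (edgeR adjusted p = 0.161).

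Goblet cell markers fell in the same comparisons: of 10 markers 5 fell and 0 rose in each Rosa26(CreER) tissue, 7 fell in Vil1(CreER) crypts, 10 in Vil1(CreER) villi, 7 in the first organoid set, 5 in the second (1 rose) and 7 in flox/flox spheroids. The summed level of the goblet markers ran from 6004 to 10562 CPM in heterozygous and from 2158 to 5124 CPM in homozygous Rosa26(CreER) crypts. In the second organoid set it ran from 1876 to 2409 CPM in flox/flox and from 2260.0 to 3198 CPM in flox/+ organoids. Muc2, the main gel-forming mucin, differed there by -0.21 ± 0.14 (SE; edgeR adjusted p = 0.26), and Agr2, an ER protein of goblet cells, fell by 0.72, while Clca1 rose by 1.95. Called genes made up 20.2 and 33.2% of all genes in Rosa26(CreER) crypts and villi, and 29.3 and 42.5% in those of Vil1(CreER). In the first and second organoid sets and flox/flox spheroids they made up 35.4, 46.8 and 19.1%. The part of goblet cell number in the Ern2 difference was not tested.

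**Figure D3:**
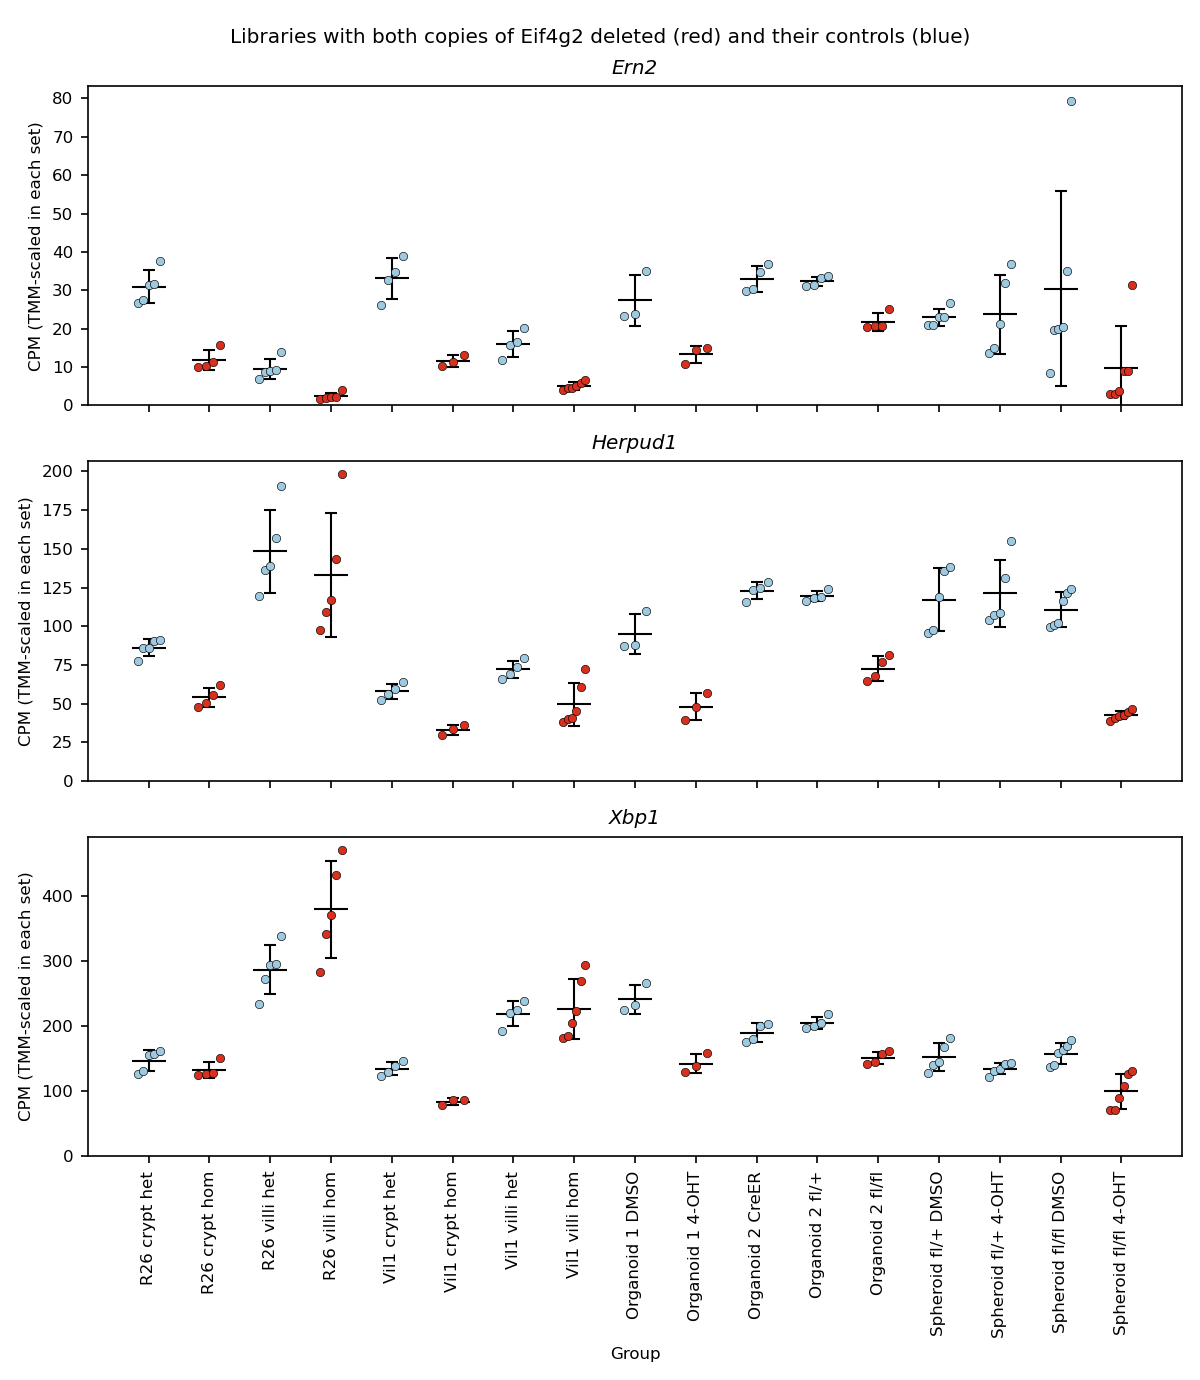
Level in CPM (vertical axis, from 0) of Ern2, Herpud1 and Xbp1 in each library (points) with group mean and SD (bars), for groups with both copies of Eif4g2 deleted (red) and their controls (blue). Red group means lie below those of their blue controls for Ern2, and the flox/flox DMSO spheroid at 79.2 CPM stands far above its group.

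Ern1 (chr11:106394650-106487852), the IRE1 gene of most tissues, changed less. It fell by 0.53 in Vil1(CreER) crypts, from 47.6, 54.3, 54.4 and 57.5 CPM to 33.5, 37.6 and 39.8 CPM, which do not overlap (edgeR adjusted p = 0.00417). Among organoids of the first set it fell by 0.50, from 50.4, 52.3 and 67.0 CPM to 36.1, 39.9 and 43.5 CPM (edgeR adjusted p = 0.0231, and 0.0846 without 4-OHT library 1). With the line as a block, as the labels pair these libraries, Ern1 stayed called (edgeR adjusted p = 0.0041). In the second set it fell by 0.25 against either control, and each call was lost in 5 of the 12 fits that left out 1 library. Those were flox/flox 2 or 3, flox/+ 1 or 2 and Eif4g2(+/+) 2 for flox/+ (edgeR adjusted p 0.0538 to 0.123), and flox/flox 2 or 3 and Eif4g2(+/+) 1, 2 or 3 for Eif4g2(+/+) (0.0767 to 0.104).

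Xbp1 (chr11:5520659-5525893), the target of IRE1, was called lower in 4 of the 7 deletion comparisons, all in crypts of Vil1(CreER) mice or in culture. In Vil1(CreER) crypts it was at 123, 129.9, 139 and 147 CPM against 78.4, 86.9 and 87.1 CPM (-0.68 ± 0.09, SE; edgeR adjusted p = 0.000987). With 4-OHT in the first organoid set it went from 225, 233 and 266 CPM to 130.0, 139 and 158 CPM (-0.76 ± 0.11, SE; edgeR adjusted p = 0.00213). In the second set it was at 142, 145, 157 and 162 CPM in flox/flox and 197, 201, 205 and 218 CPM in flox/+ organoids (-0.44 ± 0.06, SE; edgeR adjusted p = 5.56e-05). None of these groups overlapped. In flox/flox spheroids the difference was -0.66 ± 0.15 (SE; edgeR adjusted p = 0.00329), and 4-OHT libraries ran from 70.9 to 131 CPM against 136 to 179 CPM with DMSO. In Rosa26(CreER) villi, by contrast, the estimate was positive, 0.35 ± 0.14, and missed the threshold (edgeR adjusted p = 0.0687).

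Herpud1 (chr8:94386438-94395377), an ER membrane protein that organises the degradation complex, fell in 6 of the 7 deletion comparisons. In Rosa26(CreER) crypts it was at 77.3, 85.6, 86.1, 90.3 and 91.1 CPM in heterozygous and 47.8, 50.5, 55.5 and 61.9 CPM in homozygous libraries, without overlap (-0.62 ± 0.09, SE; edgeR adjusted p = 0.00167). In the villi of these mice it was not called (-0.20 ± 0.19, SE; edgeR adjusted p = 0.436). In Vil1(CreER) tissue it fell by 0.81 in crypts and by 0.56 in villi (edgeR adjusted p = 0.000867 and 0.0194), and only the crypt groups did not overlap.

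In each culture set Herpud1 fell in cells that had lost both copies of Eif4g2. Its level in the first organoid set went from 87.4, 87.6 and 109.5 CPM to 39.2, 48.0 and 57.0 CPM (-0.98 ± 0.16, SE; edgeR adjusted p = 0.00329). In the second it was at 64.6, 67.5, 76.7 and 81.7 CPM in flox/flox, 116, 118, 119 and 124 CPM in flox/+ and 116, 123, 125 and 129 CPM in Eif4g2(+/+) organoids (-0.72 ± 0.07 against flox/+, SE; edgeR adjusted p = 1.23e-06). In flox/flox spheroids it ran from 99.5 to 124 CPM (median 109, n = 6) with DMSO and from 38.6 to 46.2 CPM (median 42.1, n = 6) with 4-OHT. The 4-OHT libraries of all 6 lines lay far below the lowest DMSO library (-1.38 ± 0.12, SE; edgeR adjusted p = 8.68e-07). In flox/+ spheroids 4-OHT left it at 104, 107, 108, 131 and 155 CPM against 95.8, 97.4, 119, 136 and 138 CPM. The difference between the 2 genotypes in the effect of 4-OHT was -1.43 ± 0.18 (SE; edgeR adjusted p = 0.00054), and Herpud1 was 1 of the 10 genes called in that test (background: 1.62% of 15032 called, 0.971% lower). With the line as a block, as the labels pair the spheroids, Xbp1 was called too (-0.53, edgeR adjusted p = 0.0481). Between the genotypes with 4-OHT, Herpud1 was 1 of 10 called (-1.51 ± 0.13, SE; background: 10.5% of 15032 called, 6.13% lower).

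Dnajb9 (chr12:44205559-44210326), a co-chaperone that acts on IRE1 and BiP, Sel1l (chr12:91806043-91849157), the adaptor of the Syvn1 ligase, and Edem1 (chr6:108828641-108859356), which hands glycoproteins to degradation, all fell in 1 of the 4 tissue comparisons, that of Vil1(CreER) crypts. There Dnajb9 went from 16.7, 17.6, 18.2 and 20.3 CPM to 10.4, 11.1 and 12.2 CPM, Sel1l from 91.5, 99.6, 99.8 and 100.1 CPM to 64.4, 67.2 and 69.9 CPM and Edem1 from 89.2, 99.8, 101 and 105 CPM to 74.6, 75.5 and 76.5 CPM. The groups did not overlap, and the differences were -0.69 ± 0.11, -0.54 ± 0.07 and -0.38 ± 0.07 (log2 ± SE; edgeR adjusted p = 0.0024, 0.00105 and 0.00631). In the same crypts all 10 Paneth cell markers and 7 of 10 goblet markers fell, and the mitochondrial share was higher, as given above. Paneth markers also fell elsewhere: 9 of 10 in Rosa26(CreER) crypts, 9 in Vil1(CreER) villi, 10 in the second organoid set, 1 in flox/flox spheroids, and 8, 9 and 9 at 3, 5 and 10 µM A-485. Paneth cells are secretory cells rich in ER, and their part in the falls of Xbp1, Herpud1 and the other genes in these comparisons was not tested. Plasma and B cell markers summed to 43.3 to 991 CPM in heterozygous and 877 to 1111 CPM in homozygous crypts. With 4-OHT in the first organoid set Dnajb9 fell by 0.50 (edgeR adjusted p = 0.0368), a call lost without any library but 4-OHT 3 (0.0609 to 0.128). These fits do not use the pairing by line. With the line as a block Dnajb9 stayed called (edgeR adjusted p = 0.0056), but not with the A-485 libraries in the fit (0.167). In flox/flox spheroids it differed by -0.71 ± 0.30 (edgeR adjusted p = 0.104), with the DMSO library 5 at 95.8 CPM and the other 5 at 22.5 to 56.5 CPM. Edem1 rose in flox/flox against flox/+ organoids by 0.21 ± 0.06 (SE; edgeR adjusted p = 0.011). Against Eif4g2(+/+) organoids, with the same flox/flox libraries, it differed by 0.13 ± 0.06 and was not called (edgeR adjusted p = 0.0952).

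No member was called in 3 control comparisons of the organoid and spheroid sets. These were flox/+ against Eif4g2(+/+) organoids (0 of 10, background: 0.113% of 14220), 4-OHT against DMSO in flox/+ spheroids (0 of 10, background: 0 of 15032 genes in edgeR, with 15 genes at an unadjusted p under 0.05) and flox/flox against flox/+ spheroids with DMSO (0 of 10, background: 0 of 15032, with 1084 at an unadjusted p under 0.05). The test of 4-OHT in flox/+ spheroids did not use the pairing by line. Libraries of the same line deviated together there (r 0.652 to 0.910 over 5 pairs). Differences between lines therefore counted as error, and calls were hard to reach. Fetal spheroids had less Xbp1 and Hsp90b1 than adult organoids of the same flox/+ genotype with 4-OHT (-0.49 ± 0.08 and -0.54 ± 0.08, SE; edgeR adjusted p = 0.0011 and 0.000654), and more Edem1 (0.44 ± 0.09). Hspa5 was called lower too (-0.30, edgeR adjusted p = 0.0196), but not without organoid library 2 or 4 (0.0522 and 0.0581). These are 4 of the 10 genes (background: 47.9% of 14522). The column numbers of the spheroids and the organoids form separate series. Culture type and a difference between runs therefore cannot be told apart here.

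A-485 inhibits the histone acetyltransferases p300 and CBP. The doses share their DMSO libraries, so their values are given side by side. At 3 µM 0 of the 10 genes were called (background: 19.2% of 13724 genes), at 5 µM 3 rose and 2 fell (49.6%) and at 10 µM 5 rose and 2 fell (62% called). Ern1 was at 36.5, 39.2, 45.3 and 48.9 CPM with DMSO, 43.7, 46.9, 47.0 and 54.0 CPM at 3 µM, 58.1, 66.1, 67.1 and 74.9 CPM at 5 µM and 85.5, 95.5, 95.5 and 98.1 CPM at 10 µM. The groups at 5 and 10 µM did not overlap with any lower dose, and the differences from DMSO were 0.17 ± 0.12, 0.65 ± 0.12 and 1.14 ± 0.12 (log2 ± SE; edgeR adjusted p = 0.324, 0.00015 and 1.28e-07).

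Sel1l was at 145, 154, 155 and 160.1 CPM with DMSO and 289, 289, 299 and 307 CPM at 10 µM, and Edem1 at 111, 112, 119 and 125 CPM and 178, 190.4, 192 and 203 CPM. Neither gene's groups overlapped, with differences of 0.95 ± 0.08 and 0.71 ± 0.09 (log2 ± SE; edgeR adjusted p = 8.49e-09 and 9.59e-07). At 5 µM they were 0.63 and 0.36, both called. With the line as a block, as the labels pair these libraries, Sel1l was also called at 3 µM (0.21, edgeR adjusted p = 0.0399). Dnajb9 differed by 0.61 ± 0.22 at 10 µM (SE; edgeR adjusted p = 0.0249). The groups overlapped, since the line of replicate 1 stayed at 40.9 CPM while that of replicate 4 reached 84.3 CPM, and the call was lost without DMSO 1 or 3 or 10 µM library 3 or 4 (0.0615 to 0.0968). With the block Dnajb9 was called at 5 µM as well (0.40, edgeR adjusted p = 0.0429). Herpud1 was not called at any dose (0.10 ± 0.11 at 10 µM, SE; edgeR adjusted p = 0.448).

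Hspa5 did not follow the dose in 1 direction. It was at 638, 648, 677 and 712 CPM with DMSO, 557, 563, 566 and 601 CPM at 5 µM and 702, 945, 963 and 1059.5 CPM at 10 µM. At 5 µM every library was below every DMSO library, with a difference of -0.23 ± 0.10 (SE; edgeR adjusted p = 0.0774, and 0.0403 with the line as a block), while at 10 µM it rose by 0.46 ± 0.10 (edgeR adjusted p = 0.000836). From 5 to 10 µM the difference was 0.68 ± 0.10 (edgeR adjusted p = 0.000107). In that step 5 of the 10 genes rose and 2 fell (background: 18.9% of 13724), and in the step from 3 to 5 µM 3 rose and 2 fell (24.5%). Of these calls, that of Pdia4 at 10 against 5 µM (0.28) was lost in 8 of the 16 fits that left out 1 library, and those of Edem1 and Hsp90b1 at 5 against 3 µM (0.29 and -0.37) in 2 and 6. The increase of Hspa5 from DMSO to 10 µM was smallest in the line of replicate 1, the Eif4g2(+/+) one, at 702 CPM. Hsp90b1 fell by 0.53 at 5 µM (edgeR adjusted p = 0.00173) and differed by -0.27 ± 0.12 at 10 µM (edgeR adjusted p = 0.0665, and 0.0143 with the block).

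Ern2 and Xbp1 fell at the highest dose. Ern2 was at 14.5, 14.5, 18.5 and 19.0 CPM with DMSO, 17.3, 28.2, 29.3 and 31.0 CPM at 3 µM, 4.12, 5.78, 7.11 and 7.72 CPM at 5 µM and 0, 0.0717, 0.134 and 0.994 CPM at 10 µM. At 10 µM this was 18 reads in all, 15 of them in replicate 3 and 0 in replicate 4, against 845 with DMSO. The differences from DMSO were 0.67 ± 0.37, -1.43 ± 0.39 and -5.61 ± 0.52 (log2 ± SE; edgeR adjusted p = 0.234, 0.00511 and 4.22e-08). At 3 µM the lines of replicates 2 to 4 were higher than with DMSO and that of replicate 1 was lower. Xbp1 was at 208, 241, 250.05 and 270.4 CPM with DMSO and 137, 144, 146 and 183 CPM at 10 µM, without overlap (-0.67 ± 0.11, SE; edgeR adjusted p = 3.63e-05). Goblet markers moved alongside: of 10, 3 rose and 2 fell at 3 µM, 1 rose and 4 fell at 5 µM and 10 fell at 10 µM, and their part in the Ern2 values was not tested.

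**Figure D4:**
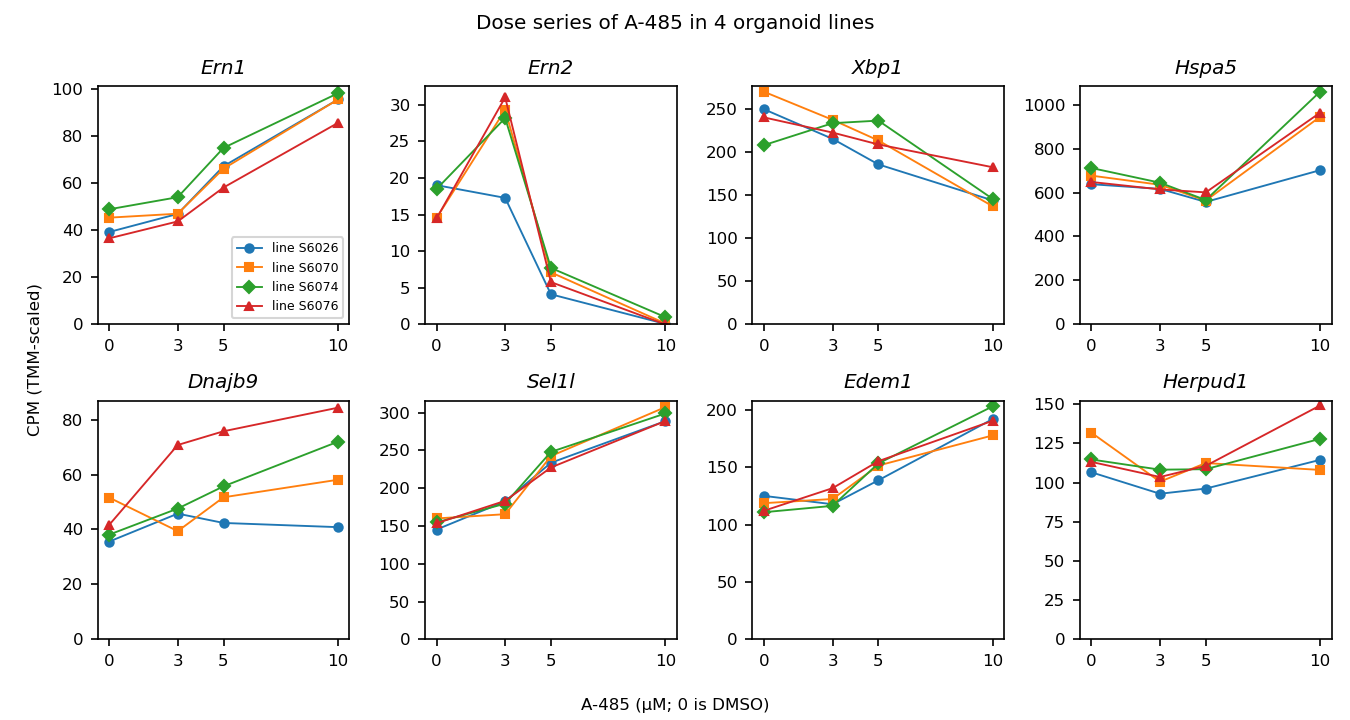
Level in CPM (vertical axis, from 0) of 8 of the genes against the A-485 dose in µM (horizontal axis, linear, 0 is DMSO) for the 4 organoid lines (coloured lines with markers). Ern1 and Sel1l climb with dose in every line, Edem1 climbs from 3 µM on, Ern2 peaks at 3 µM in 3 lines and ends near 0, and Hspa5 dips at 5 µM before it climbs.

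Of 18 other genes of ER-associated degradation, 5, 11 and 15 rose at 3, 5 and 10 µM and 0 fell at any dose (medians 0.26, 0.49 and 0.86, all genes 0.00, -0.02 and -0.05). At 10 µM those that rose included Syvn1 (1.20 ± 0.13, SE), Erlec1 (1.17 ± 0.16) and Ube2g2 (1.16 ± 0.22). Of 22 other chaperones and folding enzymes 5 rose and 8 fell at 10 µM, with Agr2 (-4.43 ± 0.23) and Pdia5 (-2.58 ± 0.27) furthest down. Of 16 genes of the PERK and ATF4 branch 8 rose and 5 fell there, among them Atf3 (3.24 ± 0.30), Ppp1r15a (2.56 ± 0.27) and Chac1 (2.12 ± 0.56) upward and Phgdh (-1.89 ± 0.26) downward. In the Rosa26(CreER) villi 6 of these 16 rose and 2 fell, with Atf5 at 1.60 ± 0.17 and Trib3 at -1.83 ± 0.29, and in the first organoid set 3 rose and 4 fell. Of all genes, 19.2, 49.6 and 62% were called at 3, 5 and 10 µM. The share was 33.2% in Rosa26(CreER) villi and 35.4% in the first organoid set.

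The villus and crypt levels in heterozygous mice differed for most of the 10 genes, as they did for most of all tested genes. Crypts against villi, 2 of the 10 were higher and 6 lower with Rosa26(CreER) (background: 77.1% of 14793 called), and 3 higher and 5 lower with Vil1(CreER) (67.9% of 15757). Dnajb9 was at 23.3, 23.7, 23.7, 25.9 and 25.9 CPM in crypts and 103, 106, 107, 130.4 and 131 CPM in villi with Rosa26(CreER), a log2 difference of -2.24 ± 0.08 (SE; edgeR adjusted p = 1.11e-09). Edem1 and Sel1l differed by -1.73 ± 0.12 and -1.52 ± 0.14. With Vil1(CreER) these 3 differed by -1.89 ± 0.10, -1.39 ± 0.11 and -1.02 ± 0.09, and neither driver's groups overlapped for any of them. Xbp1 and Herpud1 were also lower in crypts, by 0.98 and 0.79 with Rosa26(CreER) and by 0.65 and 0.26 with Vil1(CreER). The last of these was not called with the animal as a block (edgeR adjusted p = 0.0541), nor without heterozygous crypt library 1, 3 or 4 or villus library 2 or 3 (0.0796 to 0.129).

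Ern2 and Pdia4 ran the other way. Ern2 was higher in crypts by 1.70 ± 0.18 and 1.10 ± 0.17, and Pdia4 by 0.73 ± 0.12 and 0.94 ± 0.11 (log2 ± SE, Rosa26(CreER) and Vil1(CreER); edgeR adjusted p = 2.47e-06, 0.000234, 0.000123 and 1.81e-05). Ern1 differed by -0.05 ± 0.09 and 0.04 ± 0.09 and was called with neither driver (edgeR adjusted p = 0.592 and 0.691). The calls of Hspa5 with Rosa26(CreER) (-0.35) and of Hsp90b1 with Vil1(CreER) (0.32) were lost in 8 of 10 and 6 of 8 fits that left out 1 library. With the animal as a block both stayed called (edgeR adjusted p = 0.0173 and 0.0286). The markers followed the tissue labels: all 8 stem cell and all 10 Paneth markers were higher in crypts and all 10 enterocyte markers higher in villi, with either driver. Goblet markers were split: of 10, 4 were higher and 5 lower in crypts with Rosa26(CreER), and 4 higher and 6 lower with Vil1(CreER). Agr2 (2.39 and 1.26), Spink4 (2.92 and 2.17) and Spdef (1.78 and 0.54) were higher in crypts like Ern2, while Zg16 (-2.60 and -2.70), Clca1 (-1.90 and -1.68), Fcgbp (-0.95 and -1.12) and Tff3 (-0.56 and -1.58) were lower. Muc2 was lower with Vil1(CreER) (-1.01) and at -1.12 with Rosa26(CreER) (edgeR adjusted p = 0.0625). Of the 18 other degradation genes 15 and 14 were lower in crypts, with 1 higher in each.

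**Figure D5:**
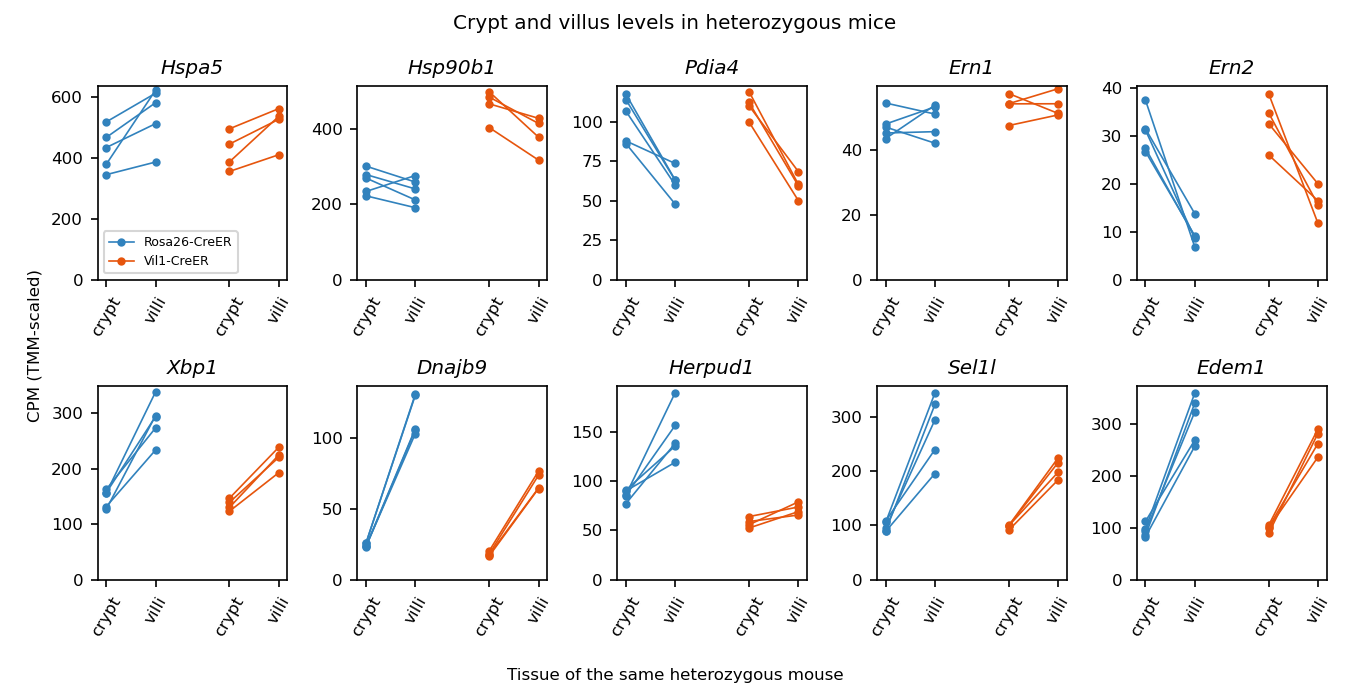
Level in CPM (vertical axis, from 0) of the 10 genes in crypts and villi of each heterozygous mouse, joined by a line, for Rosa26-CreER (blue) and Vil1-CreER (orange). Lines climb steeply from crypt to villus for Dnajb9, Sel1l and Edem1 and fall for Pdia4 and Ern2.

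Over all 92 libraries, after the mean of each of the 6 sets was taken off log2 CPM, Dnajb9, Sel1l and Edem1 went together (Pearson r 0.911 to 0.941 for their 3 pairs). The libraries share their tissue of origin and set, so these values are a description. Ern1 and Ern2 had r = -0.25, and Hspa5 and Hsp90b1 had r = 0.793. Among 7373 expressed genes, those most like Hspa5 were Calr (r = 0.858, rho = 0.802), Tmx2 (0.841), Hyou1 (0.821) and Tmed2 (0.815). Among those most like Ern1 were Kidins220 (r = 0.719), Usp33 (0.694) and Itpr3 (0.676). Those most like Ern2 were Atp2a3 (r = 0.884), Agr2 (0.884), Spata13 (0.849) and Spink4 (0.843), of which Agr2 and Spink4 are on the goblet marker list, other members of which ran against Ern2 between crypts and villi, as given above.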

How the data were processed

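Gene counts of 92 polyA-selected, strand-marked RNA libraries (per the labels' protocols) were used as deposited in 4 tables. The authors aligned reads to GRCm38 (mm10) with HISAT2 2.0.5, per the submitters' processing notes; the counting program and its strand setting are not given in the sources used here. Groups came from the sample labels, and 0 columns were without a sample. Each set was fitted with edgeR 4.0.16 (R 4.3.3): filterByExpr, TMM scaling and the quasi-likelihood test, with all genes adjusted by the Benjamini-Hochberg method and calls at 0.05. The fit held the groups of a set that shared a design, so the A-485 doses and the second organoid groups share 1 estimate of the spread. CPM uses the same scaling within each set, and CPM per kb divides by the deposited gene length.

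The 10 genes, the gene lists and the tests were chosen with earlier results of these data known. Pathway genes named are, per list and comparison, up to 4 called genes with the largest fold among genes whose average log2 CPM was 3 or more. Some genes that this rule or the likeness measure picks are not reported here. For likeness, log2 CPM was taken with 0.5 added. Alternatives were DESeq2 1.42.0, its size factors in edgeR, no count filter, other libraries in the fit, a replicate block, leaving out each library, and, for Rosa26(CreER) tissue, sex and the series of animal numbers. Replicate numbers pair the samples where samples share a line or an animal by their labels (A-485, first organoid set, spheroid treatments, crypts against villi). In Rosa26(CreER) crypts, same-numbered libraries of the 2 genotypes come from different animals. Their deviations had r 0.105 to 0.660 over 4 pairs, of which 2 were the best match, so the pairing there is not established. No replicates of a group agreed within sampling noise (smallest chi-square per degree of freedom 5.84). On simulated counts with 200 genes changed 2-fold (log2 1), the test recovered 35.5% in Rosa26(CreER) crypts (15846 genes) and 59.5% at 10 µM A-485 (13724 genes). It recovered 58% in the first organoid set and 59.5% in Vil1(CreER) villi. In the order named, false calls made up 6.58, 2.46, 7.94 and 6.30% of the calls. Far more than 200 genes were called in the data of each comparison, so these shares need not hold there.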

Additional observations from a re-analysis of the deposited data

Results flagged for a closer look

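Among groups of 4 to 10 libraries, 15 values of the 10 genes stood apart from their group by Dixon's test at 95%, which chance does in about 1 in 20 groups, and 180 gene and group pairs were tested. Flox/flox spheroids account for 7 of the 15. With DMSO, library 5 was high for Hspa5 (1424.8 CPM), Sel1l (220.1 CPM) and Pdia4 (415 CPM), and library 6 for Ern2 (79.2 CPM) and Ern1 (52.6 CPM). With 4-OHT, library 5 was high for Pdia4 (252 CPM) and library 6 for Ern2 (31.3 CPM).

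In tissue, homozygous Rosa26(CreER) crypt library 1 stood apart for Xbp1 (152 CPM) and library 3 for Ern1 (27.2 CPM), homozygous villus library 5 for Ern2 (3.96 CPM), and heterozygous Vil1(CreER) crypt library 2 for Sel1l (91.5 CPM). In organoids, flox/flox library 3 of the second set was low for Hspa5 (918 CPM) and library 4 stood apart for Ern2 (25.19 CPM). With A-485, Hsp90b1 in library 4 at 5 µM (425 CPM) and Ern2 in library 3 at 10 µM (0.994 CPM, 15 reads) did so.

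The effect of genotype differed between villi and crypts, tested as a difference in edgeR, for Hsp90b1 (0.68) and Pdia4 (0.71) with Rosa26(CreER), and for Hspa5 (1.03), Hsp90b1 (1.22), Pdia4 (1.37), Xbp1 (0.73) and Dnajb9 (0.65) with Vil1(CreER), all log2, villi minus crypts. In Vil1(CreER) villi alone Xbp1 and Dnajb9 differed by 0.03 and -0.06 between genotypes, against -0.68 and -0.69 in crypts. The effect of 4-OHT in spheroids differed between genotypes for Herpud1 (-1.43), lower in flox/flox.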

How the results depend on the processing

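Of 547 single-gene values under alternatives other than leaving out a library, 516 kept their direction and side of the threshold, 22 fell below it, 8 passed it and 1 reversed. The reversal was Hspa5 in the first organoid set without a count filter (0.0049). Counts of called genes moved by over 1.5 times as follows. With the A-485 libraries in the fit, the first organoid set went from 5 to 3. With DESeq2, spheroids with 4-OHT between genotypes went from 1 to 2, A-485 at 3 µM from 0 to 1, and the Rosa26(CreER) test of villi against crypts from 2 to 4, with Hspa5 (adjusted p 0.0194 in DESeq2). With only the groups compared, A-485 at 3 µM went from 0 to 1 (Ern2, 0.68, edgeR adjusted p 0.0441) and 5 against 3 µM from 5 to 3. With the replicate block, A-485 at 3 µM went from 0 to 1, the spheroid difference of effects from 1 to 2, and spheroids with 4-OHT between genotypes, whose numbers do not pair, from 1 to 3. Leaving out 1 library gave 3 to 5 called genes in the first organoid set, 1 to 2 in spheroids with 4-OHT, 3 to 5 at 5 against 3 µM and 2 to 5 in the Rosa26(CreER) villi against crypts test. Hspa5 in the first organoid set ran from -0.152 to 0.0876 and Pdia4 in Rosa26(CreER) crypts from -0.0829 to 0.0655, both near 0 and not called in any of these fits. Sex and the series of animal numbers changed no call. Where the numbers only share a label, the block took Pdia4 in Vil1(CreER) crypts (edgeR adjusted p 0.0738) and in flox/flox against flox/+ organoids (0.0604), and Hspa5 in spheroids against organoids (0.0828), below the threshold. The causes were not tested. Ern2 at 10 µM A-485 rests on 18 reads, which limits its fold.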
